A study of Homo sapiens with 15 samples.

Results

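The genes described here are 33 human genes of the heat shock response and of protein folding in the cytosol, with their mitochondrial partners, out of 55773 gene names in a table of ribosome footprints. They were chosen by name from known function: the transcription factor HSF1, the HSP70, HSP90 and HSP60 families, HSPB1, the J-proteins, BAG proteins, co-chaperones of HSP90 and the subunits of the chaperonin CCT. Earlier results of these data were known when the choice was made. The cells were HEK293, an established human embryonic kidney line, profiled by Ribo-seq, which sequences the RNA fragments that ribosomes protect. The 15 libraries formed 5 groups of 3. In the Flag/HA set, doxycycline-inducible lines carried the Flag/HA tag (Flag/HA-control), tagged ZC3H7A (Flag/HA-ZC3H7A) or tagged ZC3H7B (Flag/HA-ZC3H7B), and all 3 groups received doxycycline (1 µg/mL, 24 h). In the other set, the Parental group had the genotype Wild-type-shCTR and the ZC3H7A/B-DD group the genotype ZC3H7A-KO-shZC3H7B. Both of these were grown under puromycin (5 µg/mL), which was withdrawn 2 passages before collection, and were lysed with cycloheximide (100 µg/mL), an inhibitor of translation elongation that the labels do not list for the Flag/HA lysis. The sets differ in lysis, kit and the laboratory that made the libraries, so each was compared only within itself. The labels do not say whether a line was 1 clone, and they call the Flag/HA replicates independent without saying so of the Parental and ZC3H7A/B-DD replicates, whose p-values measure only the spread between these samples. The study asked how ZC3H7A and ZC3H7B, related CCCH zinc finger proteins, act on translation and mRNA stability according to codon content.

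Newly made and damaged proteins are folded by HSP70, which binds exposed hydrophobic stretches, is loaded by J-proteins and is reset by nucleotide exchange factors such as HSP110 and the BAG proteins. HSP90 and its co-chaperones finish the folding of kinases and receptors, and the ring-shaped chaperonin CCT folds actin and tubulin. When unfolded proteins accumulate, the transcription factor HSF1 binds heat shock elements, inverted repeats of GAA, in the promoters of many of these genes.

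The heat shock element is what ties many of these genes to HSF1, so the element in its shortest searched form, GAANNTTC (the same on both strands), was looked for in the 250 bases before each transcription start in RefSeq's promoter windows (GRCh38.p14). Of the 33 genes 29 had an entry, with 40 windows; HSF1, STUB1, FKBP4 and CCT6A had none. The 8 letters were present in 35.0% of the members' windows (14 of 40, in 14 genes) and in 5.78% of all 35116 windows. A longer form that adds a further GAA 2 bases after the shorter one, searched on both strands, was in 15.0% of the members' windows (6 of 40) and in 0.441% of all. The 6 genes with it were HSPA8, HSPD1, HSP90AA1, HSP90AB1, DNAJB6 and CHORDC1. These are letter matches, described without a test. HSPH1, DNAJB4, PTGES3, CCT5 and CCT8, whose footprints differed between groups, had an entry and no match. Whether a match goes with a change in footprints was not tested. The windows of HSPA1B, DNAJB1, DNAJA1 and HSPB1, whose footprints differed between groups, and of DNAJB6 with the longer form are shown, with the GAA and TTC of the matches in capitals; the last GAA of DNAJB1 opens a further match that runs past the printed stretch.
HSPA1B (chr6:31827607-31827666, plus strand): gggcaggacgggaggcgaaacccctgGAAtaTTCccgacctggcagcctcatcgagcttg
DNAJB1 (chr19:14518441-14518500, minus strand): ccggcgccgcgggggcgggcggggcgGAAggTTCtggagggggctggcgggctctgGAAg
DNAJA1 (chr9:33025049-33025108, plus strand): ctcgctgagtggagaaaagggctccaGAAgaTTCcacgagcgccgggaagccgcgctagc
HSPB1 (chr7:76302465-76302524, plus strand): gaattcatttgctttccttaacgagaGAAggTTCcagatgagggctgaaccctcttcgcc
DNAJB6 (chr7:157336847-157336906, plus strand): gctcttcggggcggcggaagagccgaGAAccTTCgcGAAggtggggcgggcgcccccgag

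HSPA1A and HSPA1B, the 2 stress-inducible HSP70 genes, lie next to each other on chromosome 6 (chr6:31815464-31817946 and chr6:31827735-31830255, GENCODE release 29 on GRCh38). Their coding sequences have 1923 bases each and differ at 4 of them, which makes them 99.8% identical. Counted from the first coding base, with the base of HSPA1A first, the substitutions are G1710T, G1860C, C1905T and A1920G, each at the third position of a codon. Bases 1856 to 1915 hold the middle pair, in capitals, in an otherwise identical stretch.
HSPA1A: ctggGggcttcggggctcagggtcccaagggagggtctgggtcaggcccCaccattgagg
HSPA1B: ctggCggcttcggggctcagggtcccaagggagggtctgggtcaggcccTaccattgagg
Of all stretches of 28 bases in HSPA1A, a length near that of a footprint, 96.0% are also in HSPA1B. The table credited the pair almost wholly to HSPA1B, with 6611 to 27991 reads per library against 1 to 148 for HSPA1A. Which of the 2 genes most of these reads came from can therefore not be told, and how multiply placed reads were counted is not given. HSPA1B below is the row of that name, which may hold reads of both genes. HSPA1A was too low to test in the Flag/HA set, where its normalized counts were 5.06, 1.2 and 2.51 in the control, 6.7, 2.79 and 7.83 with ZC3H7A and 3.04, 5.37 and 4.4 with ZC3H7B. HSP90AA1 shares no 28-base stretch with HSP90AB1, nor HSPA8 with HSPA1B, nor DNAJA1 with DNAJA2.

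Libraries held 20777204 to 42680589 reads assigned to genes, and each value is a read number over that library's size factor (normalized counts). The targeted genes were read first. ZC3H7A was at 6509, 6526 and 6607 in the control and at 37858, 37598 and 38675 in the Flag/HA-ZC3H7A libraries. ZC3H7B was at 2230.5, 2137 and 2089 in the control and at 27538, 27182 and 28936 in the Flag/HA-ZC3H7B libraries. In the other set neither target was lower: ZC3H7A was at 1885, 1819.9 and 2311 in the Parental libraries and at 7116, 1890.3 and 5066 in those labelled ZC3H7A/B-DD, and ZC3H7B was at 2479, 2321 and 2609 and 3948, 2399 and 2969. The reads give no check of that label, and every direction drawn from it below is that of the libraries labelled ZC3H7A/B-DD. All 9 markers of HEK293 were present in each group, with a summed level of 21355 to 22582 in the control, 27460 to 30494 in the overexpressing lines, 25379 to 35527 in Parental and 45643 to 50849 in ZC3H7A/B-DD libraries. Most of that sum was VIM, at 18695 to 27638 in Parental and 38935 to 43627 in ZC3H7A/B-DD libraries. KRT8 went the other way, at 304 to 368 with ZC3H7A, 571 to 672 with ZC3H7B and 903 to 952 in their control, and at 923 to 1435 in Parental against 168 to 236 in ZC3H7A/B-DD libraries. KRT18 (950.2 to 1366 against 547 to 636) and PAX2 (215 to 229 against 128 to 160.4) were also lower in the ZC3H7A/B-DD than in the Parental libraries. Fibroblast markers summed to 109 to 213 in the Flag/HA set, 606 to 789 in Parental and 408 to 519 in ZC3H7A/B-DD libraries, and blood markers, mostly HBB, to 608 to 801 in the control and 167 to 449 in the other groups. The 3 hepatocyte markers summed to at most 17.8. The part of these markers in the results was not tested, and footprints alone do not separate more mRNA from more translation of each mRNA.

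With ZC3H7A or ZC3H7B overexpressed, footprints of HSF1, HSPA1B and DNAJB1 rose while those of HSPH1, DNAJB4 and part of the CCT chaperonin fell. With ZC3H7A, 22 of the 32 members tested passed the test, 12 higher and 10 lower, against 57.5% of all 15599 genes (29.2% higher, 28.2% lower). With ZC3H7B, 23 of 32 passed, 9 higher and 14 lower, against 54.3% of all genes (28.9% higher, 25.4% lower). Single libraries leaned one way over the members: Flag/HA-ZC3H7B replicate 3 was the lowest of its 3 for 26 of 32 (41.0% of all genes) and control replicate 1 the highest for 26 of 32 (42.5%). Without the former 10 members were higher and 11 lower with ZC3H7B, and without the latter 8 and 9. The 3 libraries lay wholly above or below the 3 control libraries for 26 members with ZC3H7A and 21 with ZC3H7B, beside 63.9% and 61.1% of all genes. The test was limma on log2(value + 1), adjusted over all genes by Benjamini-Hochberg with a threshold of 0.05, and fold changes are on that scale. The members' median log2 change was 0.0018 with ZC3H7A and -0.057 with ZC3H7B, beside 0.02 and 0.04 for all genes, so the members as a list did not move one way. Calls with a log2 change of at least 0.5 numbered 5 of 32 with ZC3H7A and 2 of 32 with ZC3H7B, beside 26.0% and 23.3% of all genes. The 2 comparisons share the control libraries, so their values stand side by side and are not 2 independent observations. Means are given ± SD over 3 libraries throughout.

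**Figure D1:**
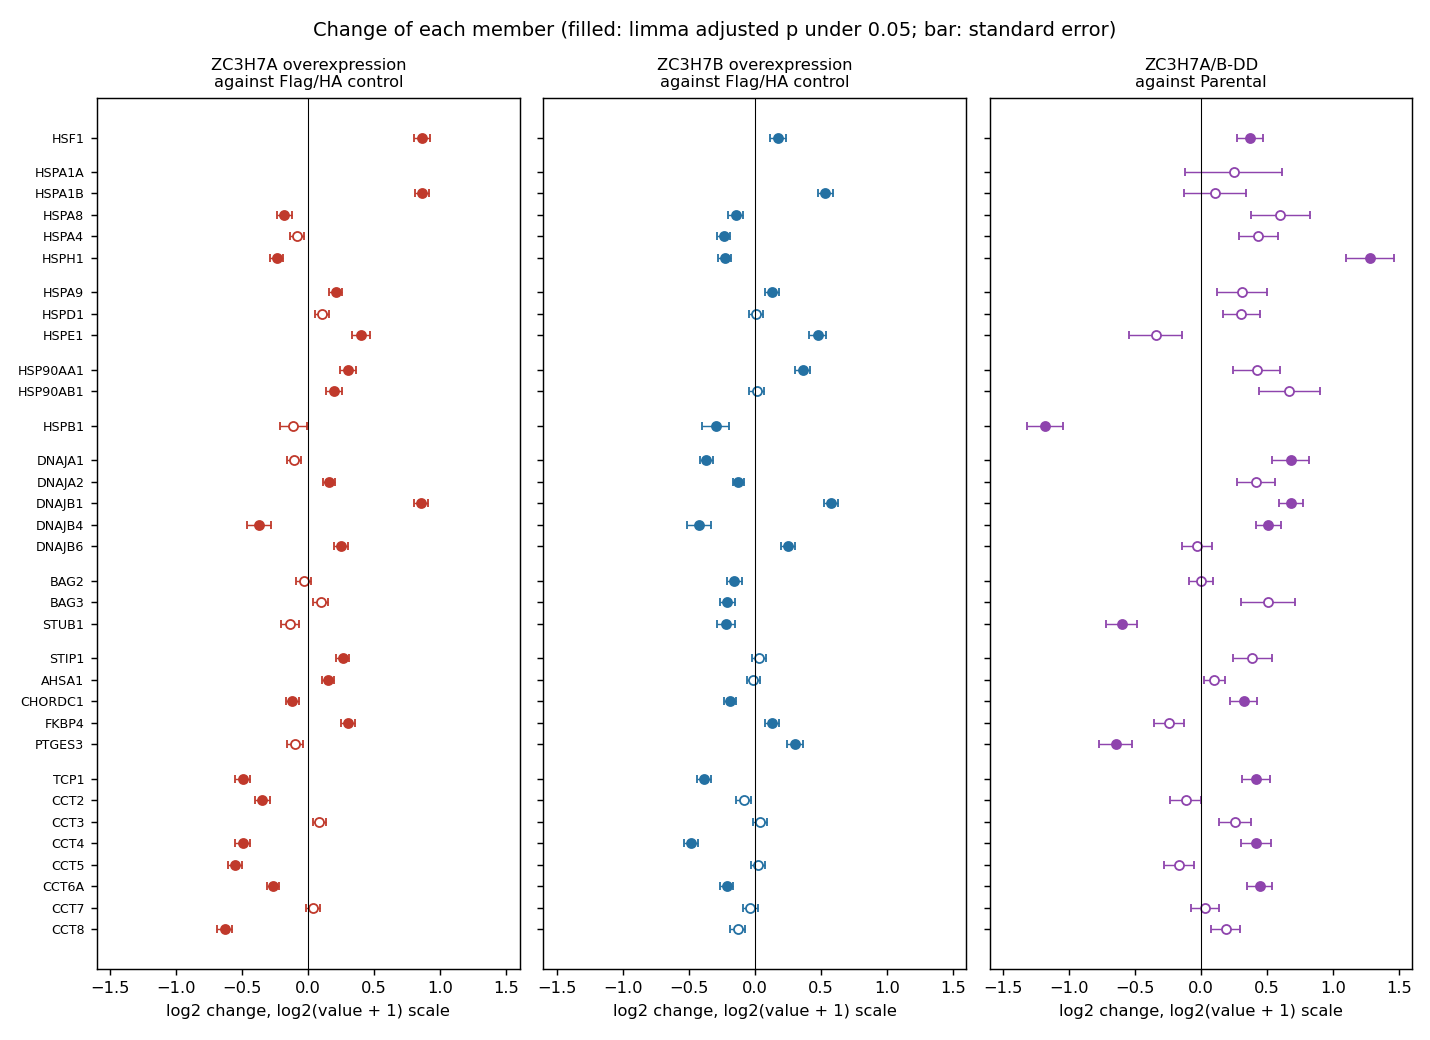
Log2 change of each member, grouped by role, with ZC3H7A (left) and ZC3H7B (middle) against the Flag/HA control and in ZC3H7A/B-DD against Parental libraries (right); points are limma estimates, bars standard errors, and filled points passed the test. HSF1, HSPA1B and DNAJB1 lie to the right in the first panel at 0.85 to 0.86, CCT8 furthest to the left at -0.63, and HSPH1 reaches 1.28 in the third; HSPA1A was tested only there.

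HSF1, the transcription factor that drives the response, was at 818, 792 and 818 normalized counts in the 3 control libraries, 1537, 1539.7 and 1342 with ZC3H7A and 923, 923 and 896 with ZC3H7B. Every library of either overexpressing line was above every control library, and the ZC3H7A libraries stood above those with ZC3H7B. The mean rose from 809 ± 15.1 to 1473 ± 113 with ZC3H7A (log2 change of 0.86 ± 0.063 (SE), limma adjusted p = 5.99e-11). With ZC3H7B it rose to 914 ± 15.4 (log2 change of 0.18 ± 0.063 (SE), limma adjusted p = 0.0219), a call that ended when control replicate 2 or Flag/HA-ZC3H7B replicate 1 or 2 was left out (limma adjusted p up to 0.0759, log2 change 0.16 to 0.19).

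HSPA1B, the stress-inducible HSP70, was at 8378, 8343 and 8311 in the control, 15140.2, 16597 and 13882 with ZC3H7A and 11359.6, 12051 and 12891 with ZC3H7B. The 3 groups did not overlap. It rose with ZC3H7A (log2 change of 0.86 ± 0.0549 (SE), limma adjusted p = 5.71e-12) and with ZC3H7B (log2 change of 0.53 ± 0.0549 (SE), limma adjusted p = 1.71e-08). The constitutive HSP70, HSPA8, with far more footprints, had 77211, 74341 and 75179.8 in the control, 66315, 70929 and 63015 with ZC3H7A and 71047, 71005 and 63541 with ZC3H7B. All 6 libraries of the overexpressing lines were below the 3 control libraries. HSPA8 fell by a small amount with ZC3H7A (log2 change -0.18, limma adjusted p = 0.00787) and with ZC3H7B (-0.14, adjusted p = 0.0335), and lost the call when Flag/HA-ZC3H7A replicate 3 was left out of the first, or any control library or Flag/HA-ZC3H7B replicate 3 out of the second. HSPH1, an HSP110 that serves HSP70 as exchange factor, fell with both (-0.24 and -0.23). HSPA4, the other HSP110 among the members, fell with ZC3H7B (-0.23, limma adjusted p = 0.000377) and did not pass with ZC3H7A (-0.086, adjusted p = 0.151).

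**Figure D2:**
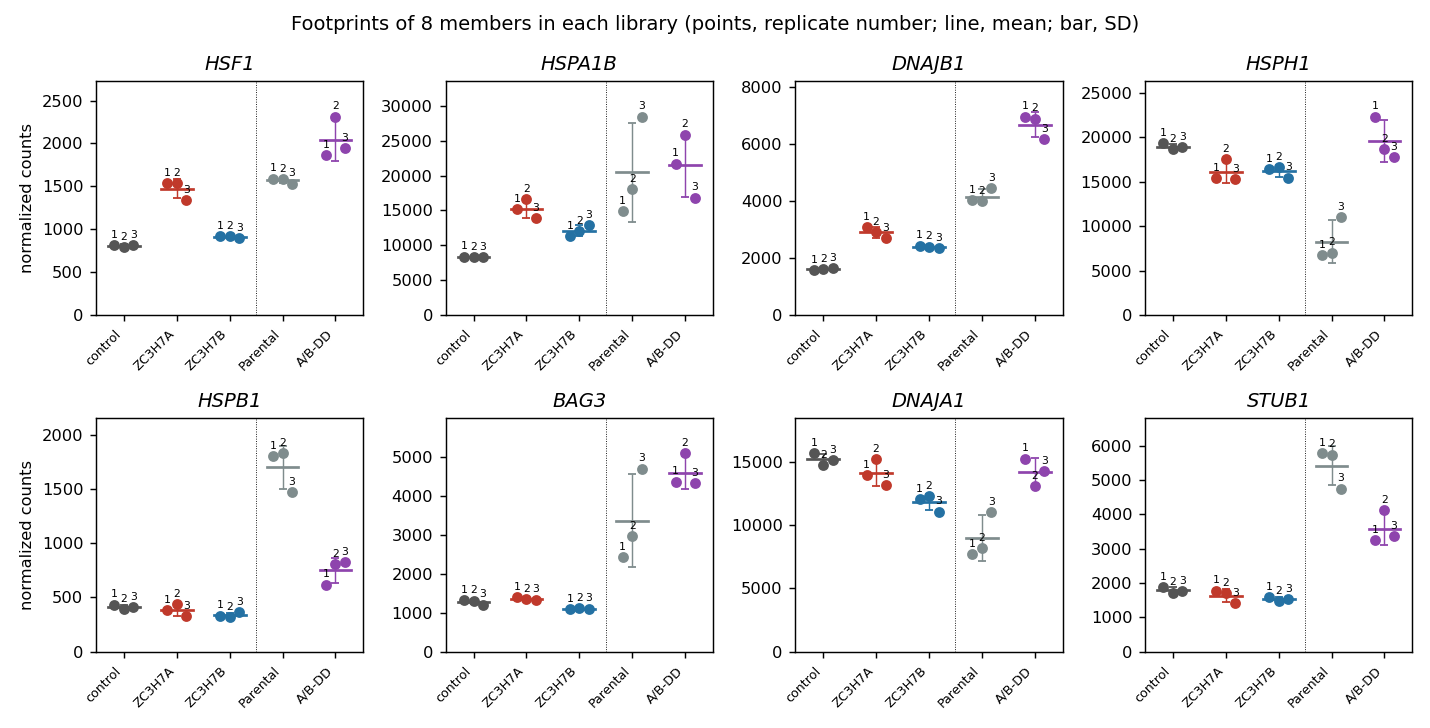
Normalized counts of 8 members in each of the 15 libraries; points carry the replicate number, lines are group means and bars SD (n = 3), and the dotted line separates the 2 sets of libraries, which were not compared. HSF1, HSPA1B and DNAJB1 rise from control to ZC3H7A without overlap, and Parental replicate 3 stands above replicates 1 and 2 for HSPA1B, HSPH1, BAG3 and DNAJA1.

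Among the mitochondrial chaperones, HSPE1, the lid of the mitochondrial HSP60 chamber, was at 754, 741 and 732 in the control, 888, 996 and 1059 with ZC3H7A and 1054, 1039.6 and 1006 with ZC3H7B. Both lines lay above the control without overlap. HSPE1 rose with ZC3H7A (log2 change 0.40, limma adjusted p = 2.03e-05) and with ZC3H7B (0.48, adjusted p = 2.05e-06). HSPD1, the HSP60 chamber itself, which shares a divergent promoter region with HSPE1 on chromosome 2, did not pass (0.10 and 0.01). HSPA9, the mitochondrial HSP70, rose slightly (0.21 and 0.13), the latter call being lost without control replicate 2 or 3 or Flag/HA-ZC3H7B replicate 1 or 2.

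Of the cytosolic HSP90 pair, HSP90AA1, the stress-inducible form, was the most abundant member in footprints, with 139478, 133067 and 135752 in the control, 168887, 175829 and 158857 with ZC3H7A and 176710.0, 185222 and 163643 with ZC3H7B. Neither line overlapped the control. It rose with ZC3H7A (log2 change 0.30, limma adjusted p = 0.000143) and with ZC3H7B (0.36, adjusted p = 1.73e-05). The constitutive HSP90AB1 rose with ZC3H7A (0.20, limma adjusted p = 0.0057) and did not pass with ZC3H7B (0.015, adjusted p = 0.845). The small heat shock protein HSPB1, which holds unfolded proteins until HSP70 takes them, was low here at 434, 395 and 409.8 in the control, 384, 437 and 330.0 with ZC3H7A and 331, 315 and 362 with ZC3H7B. The ZC3H7A libraries overlapped the control and those with ZC3H7B lay below it. HSPB1 fell with ZC3H7B (log2 change -0.30, limma adjusted p = 0.0163; up to 0.069 when control replicate 1 or Flag/HA-ZC3H7B replicate 2 was left out) and did not pass with ZC3H7A (-0.11).

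The 5 J-proteins moved in different directions. DNAJB1, the stress-inducible partner of HSP70, was at 1558, 1593 and 1644 in the control, 3085, 2892 and 2691 with ZC3H7A and 2425, 2393 and 2342 with ZC3H7B, again 3 groups that did not overlap. It rose with ZC3H7A (log2 change of 0.85 ± 0.0525 (SE), limma adjusted p = 3.26e-12) and with ZC3H7B (log2 change of 0.58 ± 0.0525 (SE), limma adjusted p = 2.32e-09). DNAJB4, a close relative of DNAJB1 in domain structure, was at 576, 617 and 582 in the control, 399, 507 and 467 with ZC3H7A and 406, 444 and 475 with ZC3H7B. Both lines lay below the control, and DNAJB4 fell with each (log2 change -0.38, limma adjusted p = 0.00108, and -0.42, adjusted p = 0.000374). DNAJB6, which holds back aggregation, rose with both (0.25 and 0.25). Of the DNAJA class, DNAJA1 fell with ZC3H7B (-0.37, limma adjusted p = 2.33e-06) and did not pass with ZC3H7A (-0.11). DNAJA2 rose with ZC3H7A (0.15) and fell with ZC3H7B (-0.12, limma adjusted p = 0.021; not passing without control replicate 1 or 3 or Flag/HA-ZC3H7B replicate 3).

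Of the exchange factors and the ubiquitin ligase of HSP70, none of 3 passed with ZC3H7A and all 3 fell with ZC3H7B. Over all genes, 57.5% passed with ZC3H7A and 25.4% fell with ZC3H7B. BAG3, which hands clients to autophagy, was at 1317, 1306 and 1204 in the control, 1406, 1344 and 1336 with ZC3H7A and 1083, 1124 and 1104 with ZC3H7B. The ZC3H7B libraries lay below both other groups, with a log2 change from the control of -0.21 (limma adjusted p = 0.00338) against 0.095 with ZC3H7A (adjusted p = 0.158). STUB1 (CHIP), the ligase that marks chaperone clients for degradation, had log2 changes of -0.14 (not passing) and -0.22 (limma adjusted p = 0.00891, lost without control replicate 1). BAG2, which inhibits STUB1, had -0.034 (not passing) and -0.15 (adjusted p = 0.0246, lost without control replicate 1 or 2 or Flag/HA-ZC3H7B replicate 3).

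Among the HSP90 co-chaperones, FKBP4, an immunophilin of steroid receptor complexes, was at 14647, 14447 and 14339 in the control, 18938, 17715 and 16926 with ZC3H7A and 16963, 16080.5 and 14544 with ZC3H7B. The ZC3H7A libraries lay above the control, while the ZC3H7B libraries reached into its range. FKBP4 rose with ZC3H7A (log2 change 0.30, limma adjusted p = 2.95e-05), and its rise with ZC3H7B (0.13, adjusted p = 0.0406) was lost without any one of 5 of the 6 libraries, Flag/HA-ZC3H7B replicate 3 being the exception. STIP1 (HOP), which links HSP70 to HSP90, and AHSA1, which speeds the ATPase of HSP90, rose with ZC3H7A (0.26 and 0.15; the latter not without control replicate 3) and did not pass with ZC3H7B (0.033 and -0.0095). PTGES3 (p23), which holds HSP90 in its closed state, rose with ZC3H7B (0.30, limma adjusted p = 0.000183) and did not pass with ZC3H7A (-0.10). CHORDC1 fell slightly with both (-0.12, lost without control replicate 1 or 3 or Flag/HA-ZC3H7A replicate 1, and -0.19).

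Subunits of the CCT chaperonin, which are assembled into rings with each subunit at its own place, did not move together. With ZC3H7A 6 of 8 fell (TCP1, CCT2, CCT4, CCT5, CCT6A and CCT8), beside 28.2% of all genes. The median log2 change over the 8 was -0.42, beside 0.02 over all genes. CCT8 was at 53678, 51753 and 51864 in the control, 32597, 34818 and 34094 with ZC3H7A and 50172, 51209 and 42909.5 with ZC3H7B. The ZC3H7A libraries lay far below both other groups, and CCT8 fell (log2 change of -0.63 ± 0.0566 (SE), limma adjusted p = 1.64e-09). CCT5 was at 36323, 35571 and 35345 in the control, 24272, 25462 and 23301 with ZC3H7A and 37652, 38625 and 33213 with ZC3H7B. Its ZC3H7A libraries stood alone below the rest (log2 change of -0.56 ± 0.053 (SE), limma adjusted p = 4.67e-09), and the ZC3H7B libraries lay on both sides of the control (0.027). TCP1 and CCT4 fell to a like extent with ZC3H7A (log2 changes -0.50 and -0.50) and with ZC3H7B (-0.38 and -0.48). CCT6A fell with both (-0.27 and -0.21), and CCT2 fell with ZC3H7A (-0.35) and did not pass with ZC3H7B (-0.082). CCT3 and CCT7 passed in neither, at 0.085 and 0.038 with ZC3H7A and 0.038 and -0.032 with ZC3H7B. CCT8 with ZC3H7B (-0.13, limma adjusted p = 0.059) passed when Flag/HA-ZC3H7B replicate 1 or 2 was left out, and CCT5 (0.027) when replicate 3 was.

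Per kb of coding sequence, the CCT subunits spread further apart in the overexpressing lines. TCP1 was the lowest and CCT3 the highest subunit in each of the 15 libraries. In the control TCP1 was at 13788 ± 427 and CCT3 at 32986 ± 765 normalized counts per kb, and with ZC3H7A at 9769.7 ± 498 and 35001 ± 1470.3. The ratio of the highest to the lowest subunit was 2.37 to 2.43 in the 3 control libraries, 3.46 to 3.73 with ZC3H7A and 3.11 to 3.29 with ZC3H7B. It was 3.04 to 3.60 in the Parental and 2.65 to 3.21 in the ZC3H7A/B-DD libraries, which overlapped. CCT8, second to CCT3 in the control at 31893 ± 658 per kb, came to 20582 ± 689 with ZC3H7A, level with CCT4 at 20312 ± 647.

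**Figure D3:**
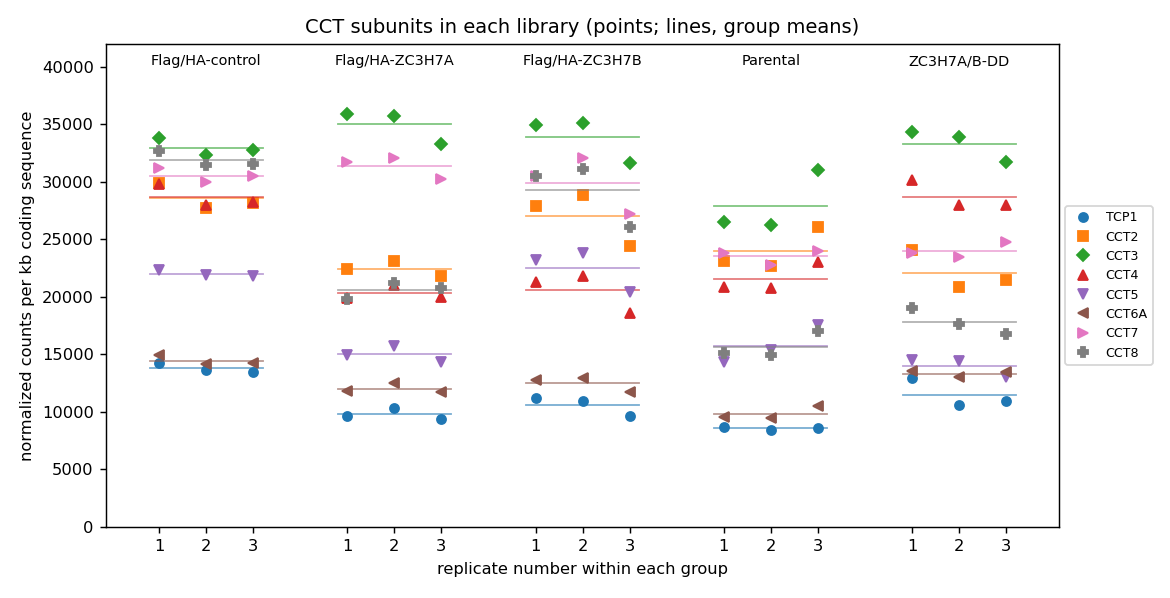
Normalized counts per kb of coding sequence of the 8 CCT subunits in each library, with group means as lines; the first 3 groups and the last 2 come from separately made sets. With ZC3H7A the subunits TCP1, CCT2, CCT4, CCT5, CCT6A and CCT8 lie lower than in the control while CCT3 and CCT7 do not, so that the ratio of CCT3 to TCP1 grows from 2.37 to 2.43 to 3.46 to 3.73.

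Compared directly, ZC3H7A and ZC3H7B differed in 15 of the 32 members tested, 11 higher and 4 lower with ZC3H7A, against 36.6% of all genes (18.4% higher, 18.2% lower). The libraries did not overlap for 14 members, beside 43.7% of all genes, and the median was 0.07 beside -0.0075 for all genes. HSF1 was the member that differed most, higher with ZC3H7A (log2 change of 0.69 ± 0.063 (SE), limma adjusted p = 5.15e-09). CCT5 (log2 change of -0.58 ± 0.053 (SE), limma adjusted p = 4.43e-09) and CCT8 (log2 change of -0.50 ± 0.0566 (SE), limma adjusted p = 1.39e-07) were lower with ZC3H7A, as were PTGES3 (log2 difference -0.40) and CCT2 (-0.27). HSPA1B was higher with ZC3H7A by 0.33, BAG3 by 0.30, DNAJA2 by 0.28, DNAJB1 by 0.27, DNAJA1 by 0.26 and STIP1 by 0.23 on the log2 scale. HSP90AB1, FKBP4, AHSA1 and HSPA4 differed by 0.18, 0.17, 0.16 and 0.15; each of these 4 calls was lost when a single library was left out, that of HSP90AB1 without Flag/HA-ZC3H7A replicate 1 or 2, FKBP4 without replicate 1, AHSA1 without replicate 2, and HSPA4 without Flag/HA-ZC3H7A replicate 2 or Flag/HA-ZC3H7B replicate 3 (limma adjusted p up to 0.0987). Members whose values lay close together in the 2 lines were DNAJB6 (-0.0059), HSPH1 (-0.012), CCT4 (-0.016) and HSPA8 (-0.038), none of which passed.

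The share of codons that end in A or T (AT3) is the codon feature nearest to the question of the study. The members have a median AT3 of 52.9%, beside 40.9% over 12857 tested genes with a coding sequence, and they span 7.81% (HSPA1A) to 74.3% (HSPE1). Across the 32 tested members, Spearman's rho between AT3 and the log2 change was -0.47 with ZC3H7A and -0.27 with ZC3H7B, beside -0.27 and -0.29 over all genes. For the difference between ZC3H7A and ZC3H7B it was -0.62 over the members and 0.0072 over all genes, and -0.64 over the 24 members outside CCT. These are descriptions across genes that share the same libraries, so no p is given. The 3 members that rose most with ZC3H7A had low AT3, at 7.97% for HSPA1B, 14.8% for HSF1 and 33% for DNAJB1, but HSPB1 (12.3%) and STUB1 (14.2%) had AT3 as low and did not pass with ZC3H7A. Within CCT, the subunits that did not pass, CCT3 and CCT7, had the lowest AT3 at 43.4% and 42.3%, followed by CCT5 at 49.6%, whose log2 change with ZC3H7A was -0.56. CCT8 had 68.4%. HSPE1, with the highest AT3, rose. In ZC3H7A/B-DD against Parental libraries rho was 0.11 over 33 members and 0.10 over all genes.

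**Figure D4:**
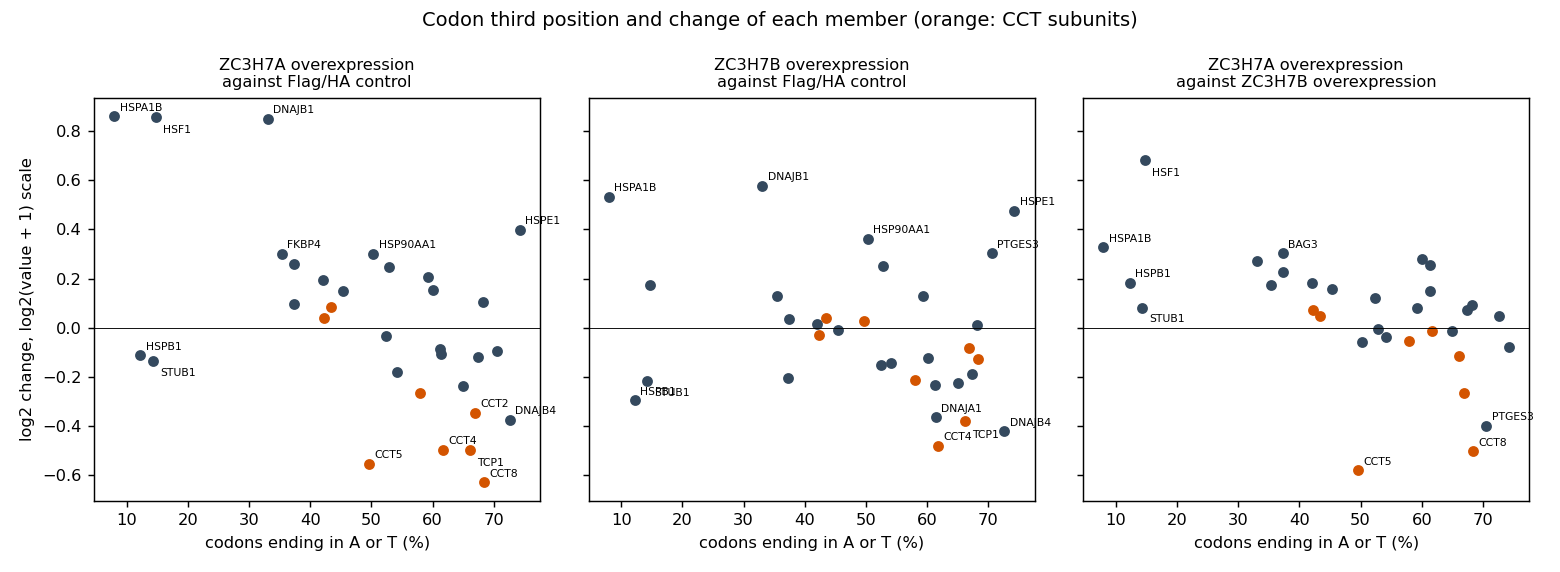
Log2 change (vertical) against the percentage of codons ending in A or T (horizontal) for the 32 tested members, CCT subunits in orange, with ZC3H7A and ZC3H7B against the control and against each other. HSPA1B, HSF1 and DNAJB1 sit high at the left of the first panel and CCT8 low at the right; HSPE1 is high at the right and HSPB1 and STUB1 are low at the left.

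In the libraries labelled ZC3H7A/B-DD, footprints of HSPH1, DNAJB1, DNAJA1 and DNAJB4 rose against Parental, and those of HSPB1, PTGES3 and STUB1 fell. In all, 12 of the 33 members passed, 9 higher and 3 lower, against 24.5% of all 17092 genes (11.0% higher, 13.5% lower), with a median log2 change of 0.31 beside 0.02. Changes of at least 0.5 were called for 7 members, beside 15.6% of all genes, and the groups did not overlap for 17 members, beside 40.8%. Parental replicate 3 stood apart from the other 2 Parental libraries. In it 23 of 32 members (without HSPA1A) were the highest of the 3, beside 32.0% of all genes, and 9 lay at least 0.5 on the log2 scale above the mean of replicates 1 and 2, beside 8.03% of all genes. HSP90AB1 was 1.85 times that mean, HSPA8 1.82 times, BAG3 1.75 times, HSPA1B 1.73 times and HSPA9 1.61 times. HSPB1 and STUB1 were lower there, at 0.811 and 0.825 times. Together the members took 1.71%, 1.73% and 2.16% of all normalized counts in the Parental libraries and 2.33%, 2.23% and 2.22% in the ZC3H7A/B-DD libraries.

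Without Parental replicate 3, 22 of 33 members passed (19 higher, 3 lower) against 33.1% of all genes (15.7% higher, 17.4% lower), and the median was 0.42 beside -0.0035. Without Parental replicate 1 or 2 in its place, 14.6% and 11.3% of all genes passed, and the members that passed numbered 8 and 7. In 22 members all 3 ZC3H7A/B-DD libraries were above Parental replicates 1 and 2, beside 27.8% of all genes, and for 9 of these Parental replicate 3 lay within (7) or above (2) the ZC3H7A/B-DD range. Leaving out Parental replicate 3, as given below for each member, gained 10 calls. Of these 10 members weights per library called all 10 and 1 joint fit of the 15 libraries called 9, both with Parental replicate 3 kept. The other settings that kept it called at most 4 of them. Weights per library can count a deviating library for less, so they are no check independent of leaving Parental replicate 3 out. The joint fit takes part of its spread from the Flag/HA libraries.

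**Figure D5:**
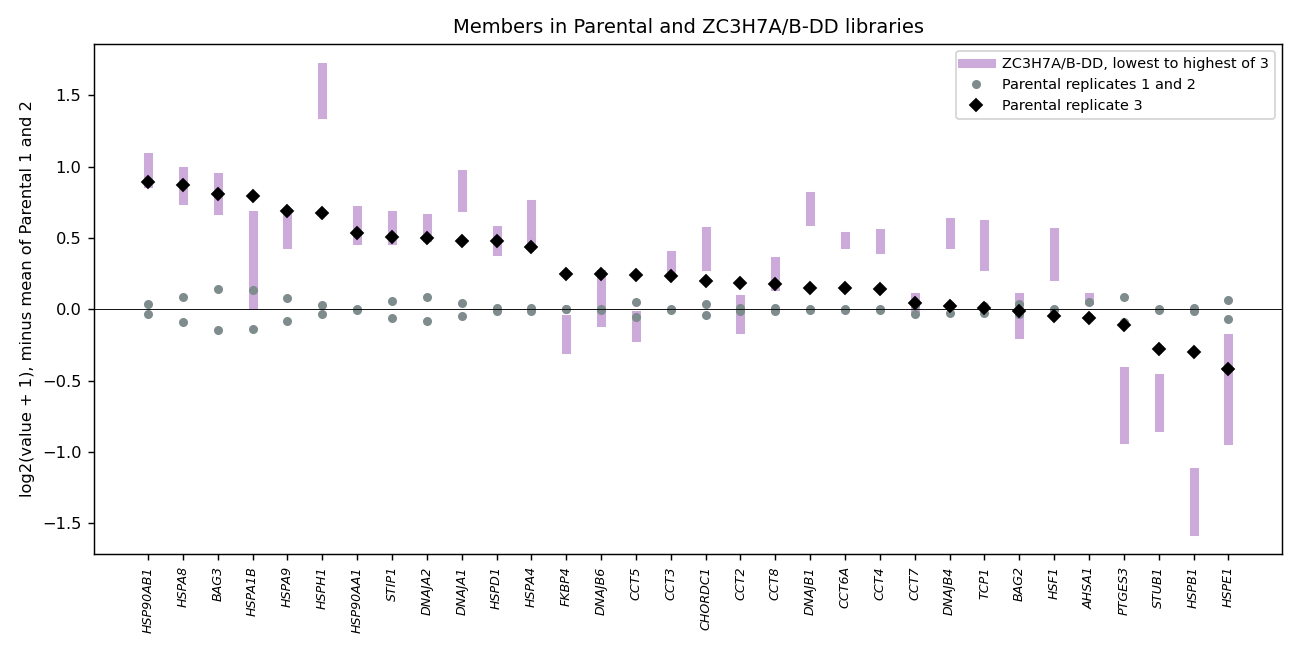
Each member (without HSPA1A) on the log2(value + 1) scale relative to the mean of Parental replicates 1 and 2 (gray points): Parental replicate 3 as black diamonds, and the range of the 3 ZC3H7A/B-DD libraries as purple bars, ordered by replicate 3. At the left, from HSP90AB1 to STIP1, the diamonds reach or pass the purple bars except for HSPH1; for DNAJB1, DNAJA1, CCT4, CCT6A and HSPB1 the bars lie apart from all 3 Parental libraries.

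HSF1 was at 1591, 1582 and 1533 in the Parental and 1862, 2312 and 1945 in the ZC3H7A/B-DD libraries, which did not overlap. It rose by 0.37 on the log2 scale (limma adjusted p = 0.0242), a call lost without ZC3H7A/B-DD replicate 2 or 3 or Parental replicate 1 or 2 (adjusted p up to 0.0859). HSPH1 was at 6745, 7026 and 11008 in the Parental and 22336, 18723 and 17787 in the ZC3H7A/B-DD libraries. Even the lowest ZC3H7A/B-DD library was above the raised Parental replicate 3, and HSPH1 had the highest rise of the members (log2 change of 1.28 ± 0.183 (SE), limma adjusted p = 0.00158; log2 change 1.15 to 1.50 with any one library left out). HSPA1B was at 14914, 18019 and 28437 and 21716, 25870.3 and 16832, overlapping groups, and did not pass with or without Parental replicate 3 (log2 change 0.10 and 0.37). HSPA1A, at 53.4, 66.9 and 150.4 and 98, 128 and 72.3, did not pass (0.25).

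For the other HSP70 proteins and HSP90, the call turned on Parental replicate 3 among the fits that leave out 1 library. HSPA8 was at 27944, 31642 and 54330.4 in the Parental and 58191, 56816 and 50656 in the ZC3H7A/B-DD libraries. Parental replicate 3 fell inside the range of the latter, and HSPA8 did not pass (log2 change 0.60, limma adjusted p = 0.0824) with all libraries and passed without that one (0.89, adjusted p = 0.000249). HSP90AB1, at 40651, 42679 and 77186 and 79848, 76987 and 87326, showed the same arrangement (0.67, limma adjusted p = 0.0639; 0.96 and 0.00013 without it). HSP90AA1 (0.42), HSPA4 (0.43), HSPA9 (0.31) and HSPD1 (0.30) likewise passed without it and not with all libraries, at 0.60, 0.58, 0.54 and 0.46. HSPE1 had -0.35 and did not pass in either.

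HSPB1 was at 1799, 1827 and 1471 in the Parental and 618, 808 and 823 in the ZC3H7A/B-DD libraries. All 3 of the latter were far below, and HSPB1 fell (log2 change of -1.18 ± 0.135 (SE), limma adjusted p = 0.000495). STUB1 was at 5777, 5741 and 4752 and 3246, 4121 and 3374, without overlap, and fell as well (log2 change of -0.60 ± 0.119 (SE), limma adjusted p = 0.00739). BAG3, at 2418, 2953 and 4693 and 4359.6, 5083 and 4327, overlapped and did not pass (0.51) with all libraries and passed without Parental replicate 3 (0.78, limma adjusted p = 0.000708). BAG2 was level (-0.0009, not passing).

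DNAJB1 was at 4008, 3996 and 4438 in the Parental and 6943, 6878 and 6150.0 in the ZC3H7A/B-DD libraries, well apart, and rose (log2 change of 0.68 ± 0.09 (SE), limma adjusted p = 0.00105). DNAJA1 was at 7678, 8162 and 11034 and 15248, 13043 and 14261. The ZC3H7A/B-DD libraries lay above all Parental libraries, replicate 3 included (log2 change of 0.68 ± 0.141 (SE), limma adjusted p = 0.00907). DNAJB4, at 401, 417 and 417 and 626, 562 and 572, rose too (log2 change of 0.51 ± 0.0957 (SE), limma adjusted p = 0.00573). DNAJA2 did not pass with all libraries and passed without Parental replicate 3 (0.41 and 0.58), and DNAJB6 did not pass in either (-0.032).

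PTGES3 was at 9704, 8579 and 8443 in the Parental and 6759, 5570.1 and 4849 in the ZC3H7A/B-DD libraries. The groups did not overlap and PTGES3 fell (log2 change of -0.65 ± 0.127 (SE), limma adjusted p = 0.00703). CHORDC1 rose by 0.32 (limma adjusted p = 0.0495), a call lost without any library other than Parental replicate 3. STIP1 did not pass with all libraries and passed without Parental replicate 3 (0.39 and 0.56), and AHSA1 (0.10) and FKBP4 (-0.24) did not pass.

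Of the CCT subunits, 3 of 8 rose, CCT6A, CCT4 and TCP1, beside 11.0% of all genes. CCT6A was at 15145, 15024 and 16704 in the Parental and 21536, 20743 and 21389.8 in the ZC3H7A/B-DD libraries, without overlap (log2 change 0.44, limma adjusted p = 0.0102, and 0.0716 without Parental replicate 2). CCT4 (0.41) and TCP1 (0.41) also lay wholly above Parental. The call of CCT4 was lost without any library other than Parental replicate 3, and that of TCP1 without ZC3H7A/B-DD replicate 1 or 3 or Parental replicate 1 or 2. CCT3 did not pass with all libraries and passed without Parental replicate 3 (0.26 and 0.34). CCT2 (-0.12), CCT5 (-0.17), CCT7 (0.029) and CCT8 (0.18) passed in neither.

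Set side by side, 6 members were lower with ZC3H7A, lower with ZC3H7B and higher in the ZC3H7A/B-DD libraries: HSPH1, DNAJB4, CHORDC1, TCP1, CCT4 and CCT6A. Of the 14220 genes tested in all 3 comparisons, 3.17% had these calls. HSF1 and DNAJB1 were higher in all 3 comparisons, as were 2.29% of all genes. Another 6 members were higher with both ZC3H7A and ZC3H7B and not called in ZC3H7A/B-DD, beside 15.2% of all genes. The first 2 comparisons share their controls, and neither target was lower in the ZC3H7A/B-DD libraries, so these counts describe the calls alone.

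Other chaperone genes were read from 5 lists. Over all genes tested, 29.2% were higher and 28.2% lower with ZC3H7A, and 28.9% and 25.4% with ZC3H7B. In ZC3H7A/B-DD libraries the shares were 11.0% and 13.5%. Among 40 tested cytosolic chaperones and co-chaperones that are not members, 14 rose and 12 fell with ZC3H7A and 16 and 9 with ZC3H7B (medians 0.03 and 0.04). BAG5 and HSPBP1, exchange factors of HSP70, rose by 0.90 and 0.76 with ZC3H7A and by 0.81 and 0.80 with ZC3H7B, where BAG2 and BAG3 did not rise. DNAJC8 fell with ZC3H7A (-0.87), and HSPA4L, a relative of HSPA4, fell by more with ZC3H7B (-0.73) than with ZC3H7A (-0.44; log2 difference 0.29, limma). Of 15 tested HSF1 targets and regulators outside the members, 3 rose and 5 fell with ZC3H7A and 1 rose and 5 fell with ZC3H7B (medians -0.17 and -0.18). Some of them, HSPA4L and HSPB8 included, are also in the cytosolic list, so the lists overlap. These counts of few genes stand beside the shares of all genes given above. DEDD2 rose with both (1.00 and 0.79), and IER5 fell with both (-0.39 and -0.20). In the ZC3H7A/B-DD libraries, 5 of 16 rose and 1 fell (median 0.20), among the former HSPA6 (1.46), HSPA4L (0.63) and HSF2 (0.52), and HSPB8 fell (-2.04). HSPA6 was low, at 23.8 ± 3.94 against 8.64 ± 4.88 in Parental, as was HSPB8, at 9.57 ± 3.82 against 42.2 ± 14.7. Both could reach the minimum of 10 in 3 samples through the higher group alone, so their changes rest on values near that floor. HSPB8, among the falls counted in the Flag/HA set, was low there too. It was at 28.6 ± 10.6 in the control, 12.1 ± 2.28 with ZC3H7A and 4.81 ± 3.11 with ZC3H7B.

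Prefoldin and the CCT partners, which deliver and receive CCT clients, passed in both directions: 7 of 18 rose and 5 fell with ZC3H7A, 6 and 4 with ZC3H7B, and 1 and 2 in ZC3H7A/B-DD libraries (medians 0.06, 0.08 and 0.05). Beside them, 29.2% of all genes were higher and 28.2% lower with ZC3H7A, and 28.9% and 25.4% with ZC3H7B. In ZC3H7A/B-DD libraries these shares were 11.0% and 13.5%, and they serve for the next 2 lists as well. URI1 (0.82 and 0.32) and TBCB (0.66 and 0.30) rose with ZC3H7A and with ZC3H7B. VBP1, a prefoldin subunit, fell with both (-0.67 and -0.52). Of 19 chaperones of the endoplasmic reticulum, none rose and 16 fell with ZC3H7A, and none rose and 17 fell with ZC3H7B (medians -0.39 and -0.55). HSP90B1, the HSP90 of that compartment, fell with ZC3H7A (-0.67), where HSP90AA1 and HSP90AB1 rose, and MANF fell with both (-0.72 and -1.03). The mean of HSP90B1 was 139638 ± 4965 in the control, 87820 ± 4871 with ZC3H7A and 112422 ± 7088 with ZC3H7B. In ZC3H7A/B-DD libraries 3 rose and 1 fell (median 0.06), the latter being DNAJB9 (-1.63). Of 15 other mitochondrial chaperones and proteases tested, 5 rose and 6 fell with ZC3H7A and 6 and 5 with ZC3H7B, and of 16 in ZC3H7A/B-DD libraries 1 rose and 5 fell (medians -0.079, 0.10 and -0.074). LONP1, a matrix protease, rose with ZC3H7B (0.83), TIMM44 with both (0.64 and 0.69), and HSCB, a J-protein, fell with ZC3H7A (-0.92). The mean of LONP1 was 2855 ± 50.8 in the control, 3402 ± 150 with ZC3H7A and 5074 ± 63.4 with ZC3H7B.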

How the data were processed

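Per the file header, the authors deposited 1 signal (a normalized count) for each of 55773 gene names in 15 libraries. Tools listed in the submitters' processing notes, with no version or role, are STAR, Bowtie, HTSeq, cutadapt and DESeq2, and the listed builds are hg38 and hg19. Which build was aligned to, and how multiply placed reads were counted, is not given in the sources used here. Within a library all low values were multiples of 1 step; divided by it, 100% of values came out whole (tolerance 0.001 reads). Values are therefore reads divided by a size factor. No molecular identifiers are named, and depth was 20777204 to 42680589 reads per library.

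The main test was limma 3.58.1 in R 4.3.3 (eBayes with trend) on log2(value + 1), run on genes that reached 10 in 3 or more samples of a fit. P-values were adjusted over all genes (Benjamini-Hochberg), and calls were made under 0.05. One fit held the 9 Flag/HA libraries and another the remaining 6. On the recovered reads edgeR 4.0.16 called 9059 (ZC3H7A), 8494 (ZC3H7B), 5856 (ZC3H7A against ZC3H7B) and 4132 genes (ZC3H7A/B-DD), and DESeq2 1.42.0 called 8528, 7934, 5360 and 4152. Other alternatives were pseudocounts, filters, scalings, weights, a replicate block, 1 joint fit, HSPA1A and HSPA1B summed, and leaving out each library.

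Coding sequences were the longest in GENCODE release 29, and AT3 leaves out the start and stop codons. Members and lists were chosen with earlier results of these data known. All members are named. Values per library are given for members called with a log2 change of at least 0.5 and no overlap in any comparison, and for at least 1 member of each role. From the other lists up to 3 called genes per direction and comparison with the largest changes could be named. On simulated data (200 changed genes) the limma step recovered 97.0%, 95.5%, 94.0% and 34.3% of 1.5-fold changes for ZC3H7A, ZC3H7B, ZC3H7A against ZC3H7B and ZC3H7A/B-DD (15526, 15515, 15505 and 17185 genes), and 100%, 100%, 100% and 97.0% of 2-fold changes, with 2.94%, 2.48%, 5.77% and 2.53% of calls false. The simulation gave all genes of a fit 1 common spread and held no library set apart like Parental replicate 3. Its rates need not hold for single members.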

Additional observations from a re-analysis of the deposited data

How the results depend on the processing

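Over all settings, 2010 values kept their side of the threshold, with the same direction where they were called, 77 gained a call and 109 lost one. Values called in neither fit could change sign, as HSPA1B did in ZC3H7A/B-DD (-0.098 to 0.37 with 1 library left out). AHSA1 with ZC3H7B turned from -0.0095 to 0.12 under quantile scaling (limma adjusted p = 0.0112). One fit of all 15 libraries called 13, 11, 5 and 22 members for ZC3H7A, ZC3H7B, ZC3H7A against ZC3H7B and ZC3H7A/B-DD, in place of 22, 23, 15 and 12; the joint fit shares 1 spread between the sets. Weights per library, whose estimate did not converge fully, called 9003 genes and 23 members in ZC3H7A/B-DD. Leaving out 1 library gave 8113 to 8554, 7563 to 7994, 4987 to 5514 and 1895 to 5560 genes, and 20 to 23, 17 to 21, 13 to 17 and 7 to 22 members, the highest in ZC3H7A/B-DD being without Parental replicate 3 and the lowest without Parental replicate 2. TMM and quantile scaling moved the median of all genes by at most 0.022. Deviations of same-numbered libraries correlated at -0.13 to 0.09, and those of differently numbered libraries at -0.10 to 0.17. For ZC3H7A against ZC3H7B the same-numbered values were all positive (0.019 to 0.092). These values do not settle whether the numbers pair the libraries, and the main test used no pairing. With the replicate block, 9169, 8714, 6026 and 2992 genes and 24, 24, 17 and 9 members were called. Calls of HSF1, HSPA9, FKBP4 and CCT8 with ZC3H7B and of CHORDC1 in ZC3H7A/B-DD lay near the threshold and differed between tests: DESeq2 gave adjusted p = 0.0939 for HSF1 and 0.0088 for CCT8; it also called HSPA8, HSPA4 and HSP90AB1 in ZC3H7A/B-DD (0.0488, 0.0316 and 0.0244), and edgeR gave 0.0668 for FKBP4 and 0.0675 for CHORDC1. In the simulation for ZC3H7A/B-DD, which had 1 common spread and no outlying library, 34.3% of 1.5-fold changes were recovered. Members that did not pass there may still differ by that much.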
